A study of Sus scrofa with 8 samples.

Results

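MX1 and MX2 are paralogous dynamin-like GTPases, 2 of the 35683 genes counted in single nuclei of pig retina, and were chosen because earlier results from these retinas showed both higher after AAV injection. All AAV-against-vehicle values of the pair are therefore given as a description, without a test. The 8 retinas came from 6 female Yucatan minipigs of 3 to 5 months. Every eye had received Vitrase, a hyaluronidase that loosens the vitreous, and every animal weekly methylprednisolone, so both arms carry these treatments. The AAV arm was injected into the vitreous with AAV2.7m8/CAG-GFP at 5e+11 vector genomes per eye, which encodes a green fluorescent reporter under a promoter active in most cell types, and the other arm with vehicle. At week 2 each arm was 1 animal with both eyes sequenced (left eye replicate 1, right eye replicate 2), and at week 4 each arm was 2 animals with the left eye sequenced. The labels give each group its own batch, so batch and group cannot be told apart, and they state that the day of sacrifice followed the inflammatory response of the animal, so the weeks are not a randomised time course.

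Mx proteins are induced by type I and type III interferons. Interferon binding to its receptor activates the kinases JAK1 and TYK2, and the transcription factors downstream, among them STAT2 and IRF9, act through the interferon-stimulated response element (ISRE) before many interferon-stimulated genes (ISGs). MX1 is best known for blocking influenza and other RNA viruses in the cytoplasm, and MX2 in humans for restricting HIV-1 at the nuclear envelope. Because resting cells hold little of either, Mx transcripts are widely used as a readout of interferon exposure.

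Both genes lie in tandem on the plus strand of chromosome 13 (Sscrofa11.1, RefSeq annotation), MX2 at 204798633-204821612 and MX1 at 204843049-204868927, with 21436 bases between them. FAM3B precedes MX2 and TMPRSS2 follows MX1. RefSeq marks the 5′ end of MX2 as incomplete, so its first base may not be the start of transcription. The 250 bases before the annotated MX2 start are shown because they hold a repeated match to an ISRE half-site. The capitals mark matches to GAAANGAAA, an ISRE half-site repeat with 1 spacer base, which stands here on the minus strand and so reads TTTCNTTTC.

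MX2, chr13:204798383-204798632, plus strand: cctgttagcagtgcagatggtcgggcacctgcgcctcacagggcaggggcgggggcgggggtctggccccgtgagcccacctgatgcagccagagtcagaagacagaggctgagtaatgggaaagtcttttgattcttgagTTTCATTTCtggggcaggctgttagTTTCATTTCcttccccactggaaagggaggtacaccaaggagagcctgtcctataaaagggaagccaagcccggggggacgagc

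The window held 2 such matches, which began 109 and 84 bases before the annotated start. At least 1 match stood in 544 of the 19556 windows of the same length before protein-coding genes (2.78%). The spacing of 1 base was chosen after the letters of this window had been read, so nothing is read from that share. The usual form with 2 spacer bases, GAAANNGAAA, was not in it and was in 3.01% of all windows, both strands counted. A match is a description of letters and not a measured site.

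Each nucleus was given a cell class from its own counts of fixed marker genes. Of 388491 barcodes 350537 were kept, 17.98% of these were left without a class, and the others were rods (130501 nuclei), cones, bipolar, amacrine and horizontal cells, retinal ganglion cells (RGCs, 1141 nuclei), Müller glia, astrocytes, myeloid cells, T/NK cells, B/plasma cells and minor classes not described here. Depth per retina ranged from 121544835 to 173614051 UMIs, the unique molecular identifiers that count single captured transcripts. Median UMIs per nucleus differed by class, from 1190.5 in T/NK nuclei and 1860 in rods to 20864 in RGCs, so levels are given in CPM, the UMIs of a gene scaled to the total of its sum of nuclei, and shares of positive nuclei also after each nucleus was thinned to 1000 UMIs. T/NK and B/plasma nuclei reached 50 per retina in the AAV week 4 retinas only. There 53.3% and 52.2% of nuclei gated as T/NK had CD3E, a chain of the T cell receptor complex, and 0.534% and 0.514% had CHAT, the enzyme that makes acetylcholine. In the other 6 retinas 11 to 33 nuclei passed that gate, of which 0 to 9.09% had CD3E and 56.5 to 89.3% CHAT, at medians of 6163 to 9596 UMIs, so they went against the name and are not described. Of 368982 distinct barcode sequences 18860 occurred in more than 1 lane. Lanes of 1 retina shared 23 to 65 sequences and lanes of different retinas 18 to 62, and none of the 20177 shared pairs had equal UMI and gene numbers.

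In the vehicle-injected retinas MX1 was low and MX2 was close to absent outside the immune cells. Over 140590 vehicle nuclei of the 8 neuronal and glial classes, MX1 had 2664 UMIs and MX2 had 73. Pooled over the 4 vehicle retinas, MX1 was ordered from cones (1.94 CPM), rods (2.75) and bipolar cells (4.65) to horizontal cells (10.4), RGCs (11.9), amacrine cells (12.9), Müller glia (16.3) and astrocytes (20.5). Cones and rods overlapped between retinas, as did horizontal cells, RGCs and amacrine cells, and so did Müller glia and astrocytes. Astrocytes, whose lowest retina stood at 13.9 CPM, also overlapped horizontal cells, RGCs and amacrine cells. Vehicle myeloid nuclei were the exception for MX2. They held 85 MX2 UMIs in 251 nuclei, 133 to 242 CPM in the 4 retinas, and MX1 at 37.0 to 133 CPM. MX1 made up 29.8% of their MX UMIs (exact 95% interval 21.8 to 38.7%), against 91.5% in vehicle rods and 98.0% in vehicle Müller glia. These intervals, here and throughout, cover counting error only. Those of UMI shares and of ratios take each UMI as an independent draw. They are therefore too narrow where the UMIs of a gene cluster in few nuclei, as the 219 MX2 UMIs of 37 horizontal cell nuclei in 1 AAV week 4 retina.

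After AAV injection both genes were higher in all 9 classes that could be compared. At each week every AAV-injected retina lay above every vehicle-injected retina in 9 of 9 classes for MX1 and for MX2. Over all genes and classes the same held for 33.7% of gene-class pairs at week 2, where each arm is 1 animal, and for 25.3% at week 4, so the lack of overlap is by itself a weak measure. The narrowest case was MX2 in RGCs at week 2, where the left AAV eye had 1 UMI in 163 nuclei and vehicle eyes had 0 and 1.

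**Figure D1:**
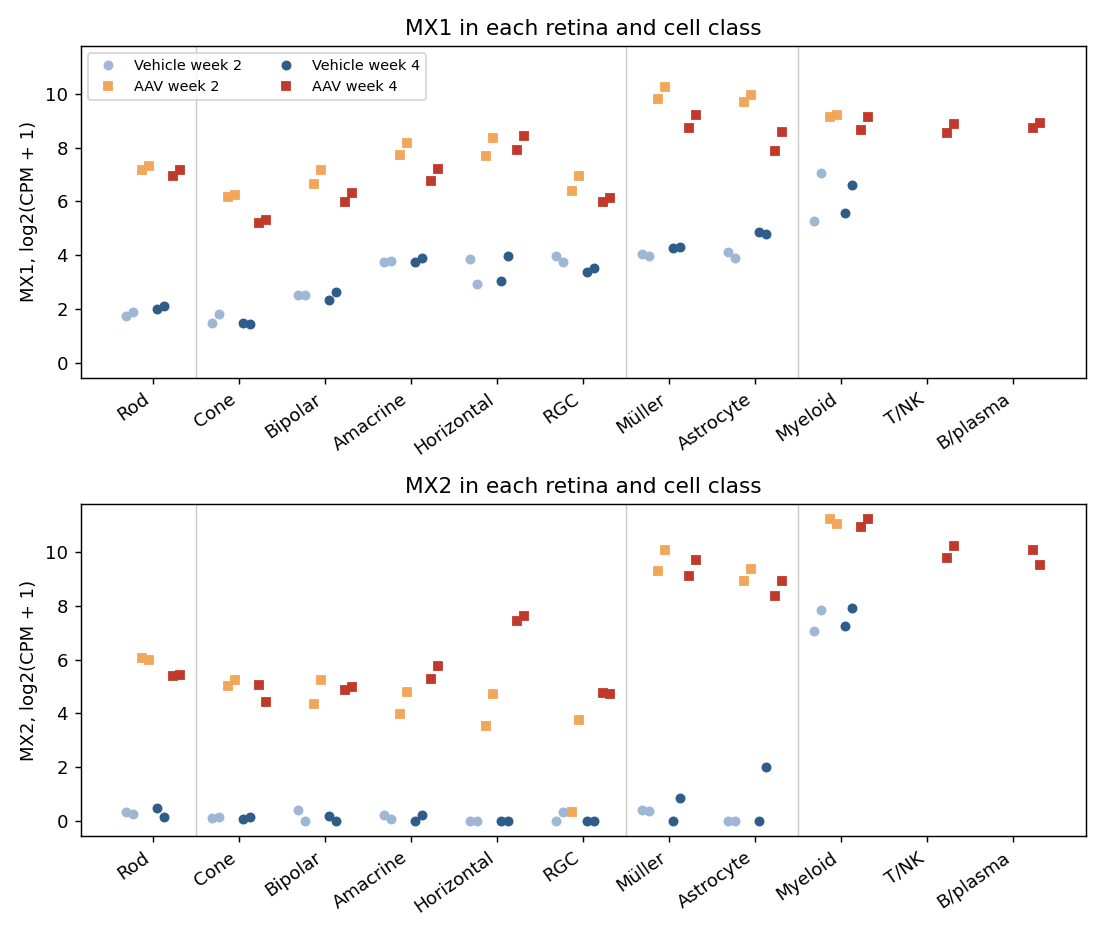
Level of MX1 (upper panel) and MX2 (lower panel) as log2(CPM + 1) in each retina (1 point per retina) by cell class, with grey lines dividing rods, other neurons, glia and immune classes. AAV-injected retinas lie above vehicle-injected retinas in each of 9 classes, and vehicle MX2 lies near 0 except in myeloid nuclei.

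Rods, the dim-light photoreceptors, showed how closely the retinas of an arm agreed when all nuclei of the class were summed. MX1 stood at 144 and 156 CPM in the week 2 AAV eyes against 2.33 and 2.72 in vehicle. At week 4 it was 123 and 141 CPM in the 2 AAV animals against 2.98 and 3.28. On summed counts the ratio was 59.7 at week 2 (counting interval 51.6 to 69.6) and 42.9 at week 4 (36.5 to 50.7). MX2 in rods was 65.3 and 62.4 CPM at week 2 and 40.5 and 41.8 at week 4, against 0.106 to 0.406 in the 4 vehicle retinas. Neither gene overlapped between arms in rods, and replicate retinas differed far less than the arms did. The edgeR log2 fold change at week 4 was 5.51 ± 0.17 (SE, n = 2 animals per arm) for MX1.

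Among the other neurons at week 4, MX1 was highest in horizontal cells, the lateral interneurons of the outer plexiform layer, and lowest in cones. At week 2 horizontal cells (204 and 330 CPM) and amacrine cells (211 and 288) overlapped. At week 4 MX1 averaged 291 ± 70.1 CPM (SD, n = 2) in horizontal cells, 128 ± 28.7 in amacrine cells, 70.1 ± 12.5 in bipolar cells, 64.8 ± 4.27 in RGCs and 37.2 ± 2.35 in cones. Rods, at 132 ± 12.8, were within the spread of amacrine cells, and RGCs were within that of bipolar cells. The ratio to vehicle followed another order, because the vehicle level differed. It was 27.0 in horizontal cells (18.8 to 40.3), 21.4 in cones (16.8 to 27.8), 15.5 in bipolar cells (13.4 to 17.98), 9.40 in amacrine cells (8.38 to 10.6) and 6.47 in RGCs (4.84 to 8.81). RGCs, whose axons form the optic nerve and which lie next to the vitreous, thus had the smallest MX1 ratio of the neurons at both weeks (7.49 at week 2, 6.05 to 9.38), although at week 4 its interval overlapped that of amacrine cells.

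In CPM, Müller glia held more of both transcripts than any neuronal class. These cells, which span the retina, had MX1 at 895 and 1222 CPM in the week 2 AAV eyes and 421 and 585 at week 4, with vehicle retinas at 14.6 to 18.8. MX2 in Müller glia was 621 and 1086 CPM at week 2 and 556 and 826 at week 4, with vehicle at 0 to 0.819. The ratio for MX1 was 74.2 at week 2 (66.8 to 82.7) and 25.3 at week 4 (22.2 to 28.9). For MX2 at week 4 it was 1666 (714 to 5132), from 6933 AAV UMIs and 5 vehicle UMIs that all came from the second vehicle animal, against which alone the ratio was 777. Astrocytes, which lie along the nerve fibre layer, had MX1 at 305 ± 103 CPM and MX2 at 408 ± 114 CPM in the AAV animals at week 4. In CPM each animal lay below its own Müller glia, and MX1 overlapped that of horizontal cells. Per nucleus, where depth differs, the order was another. At week 4 MX1 UMIs per nucleus were 2.34 and 3.26 in Müller glia, 2.40 and 3.28 in horizontal cells and 2.50 and 4.23 in astrocytes. MX2 UMIs per nucleus were 3.09 and 4.61 in Müller glia, 1.70 and 1.89 in horizontal cells and 3.52 and 5.47 in astrocytes.

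In myeloid nuclei at both weeks, and in T/NK and B/plasma nuclei at week 4, MX2 exceeded MX1. Myeloid nuclei, a class that takes in microglia and any infiltrating macrophages, had MX2 at 2379 and 2082 CPM in the week 2 AAV eyes and 1964 and 2381 at week 4. This was the highest level of either gene in any class. Against vehicle the ratios were small, because vehicle myeloid nuclei already held both transcripts: at week 4 6.36 for MX1 (3.78 to 11.6) and 10.7 for MX2 (7.78 to 15.1). Without the second vehicle animal the ratio of MX1 was 10.1, and its edgeR log2 fold change 3.63 in place of 2.88. Myeloid nuclei were also more numerous, from 57 and 59 in the vehicle retinas to 1210 and 724 in the AAV retinas at week 4, so a change within resident cells and the arrival of other cells cannot be told apart. T/NK nuclei of the AAV week 4 retinas held MX2 at 883 and 1203 CPM and MX1 at 376 and 463, and B/plasma nuclei MX2 at 1073 and 726 and MX1 at 426 and 479.

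For MX2 the vehicle level was often under what the counts can resolve, so fold values in neurons are bounds or wide. Horizontal cells and RGCs had no MX2 UMI in the week 4 vehicle retinas. Set against a floor of 3 counts over the vehicle group, the AAV animals exceeded vehicle in MX2 by at least 170-fold in horizontal cells, and RGCs by at least 45.2-fold. Cones (3 vehicle UMIs) gave a ratio of 338 (115 to 1643), bipolar cells (3 UMIs) 422 (144 to 2048), amacrine cells (2 UMIs) 544 (150 to 4500) and astrocytes (3 UMIs) 238 (81.3 to 1157). These wide intervals overlap, and no order of the neuronal classes can be read from them. Part of the MX2 level lay in nuclei with glial or immune marker UMIs, described below. Without such nuclei AAV cones of week 4 kept 0.256 to 0.279 of their MX2 level and bipolar cells 0.315 to 0.321. Rods, with 12 and 2 vehicle UMIs in the vehicle animals of week 4, gave a ratio of 143 (85.1 to 262), which was 390 without the first vehicle animal. With 1 vehicle animal left out the ratio moved by over 1.5 times also in cones (532 without the second), bipolar cells (215 without the second), amacrine cells (290 without the first) and astrocytes (134 without the first), and in bipolar cells, amacrine cells and astrocytes leaving out the other vehicle animal left no vehicle UMI.

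The share of nuclei with an MX UMI also differed by class, and depth differed with it. In rods of the week 4 AAV retinas, 21.0% and 25.9% of nuclei had an MX1 UMI and 4.53% and 5.61% an MX2 UMI, against 0.522% and 0.565%, and 0.0497% and 0.0198%, in vehicle. RGCs had an MX1 UMI in 57.9% and 71.8% of nuclei, but their median depth was 21734 and 21100 UMIs, against 1945 and 2188 in rods. Thinned to 1000 UMIs per nucleus, the MX1-positive share at week 4 was 11.7 ± 1.35% of rods, 6.83 ± 1.74% of RGCs and 12.3 ± 1.42% of amacrine cells (SD, n = 2 animals), so the excess of RGCs over rods was not present at equal depth. The corresponding MX2-positive shares were 2.65 ± 0.229%, 2.82 ± 1.72% and 4.41 ± 2.04%. In Müller glia 36.9 ± 5.53% of thinned nuclei had MX1 and 41.6 ± 10.6% MX2, and in myeloid nuclei 36.2 ± 6.16% and 82.2 ± 4.29%. Horizontal cells, at 22.7 ± 5.77% for MX1 and 9.90 ± 1.94% for MX2, stood above the other neurons, and for MX1 their retinas (18.6% and 26.8%) overlapped those of astrocytes (23.5% and 33.0%). Astrocytes averaged 28.3 ± 6.73% for MX1 and 28.2 ± 5.65% for MX2, T/NK nuclei 30.7 ± 2.19% and 47.1 ± 5.08%, and B/plasma nuclei 34.97 ± 0.706% and 42.6 ± 8.77%. The MX2 share thus lay higher in each glial and immune class than in horizontal cells, while the MX1 shares of horizontal cells and astrocytes overlapped. Thinning left out 3.15% of the nuclei of AAV week 4 and 6.65% of vehicle week 4.

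**Figure D2:**
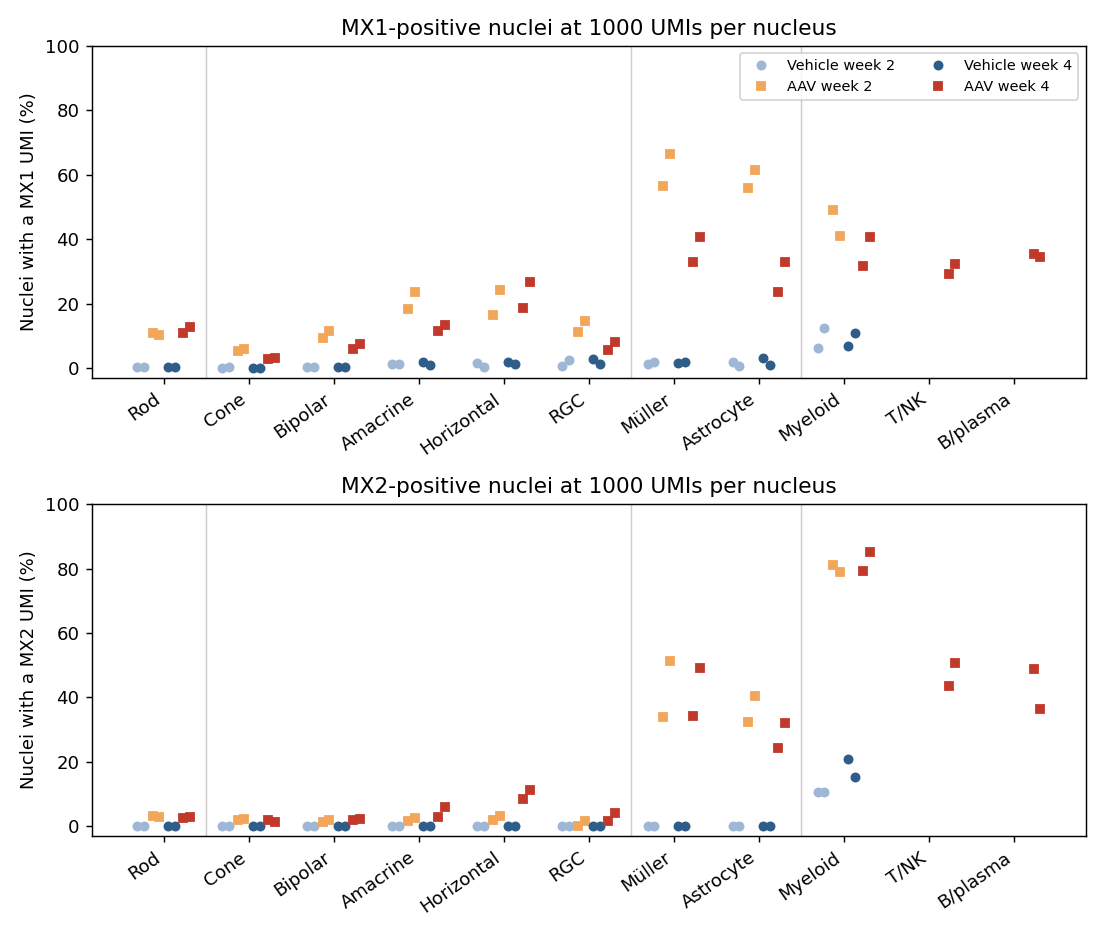
Percent of nuclei with at least 1 UMI of MX1 (upper panel) or MX2 (lower panel) after thinning every nucleus to 1000 UMIs, 1 point per retina, by cell class. At week 4 MX2 was found in 82.2% of AAV myeloid nuclei on average and in 2.65% of AAV rods, and vehicle neurons and glia lie near 0.

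MX2 UMIs were more clumped than MX1 UMIs in rods. A rod with any MX1 UMI held 1.32 and 1.38 of them on average in the week 4 AAV retinas, and a rod with any MX2 UMI held 2.01 and 1.89, with up to 25 in a single nucleus. Myeloid nuclei positive for MX2 held 5.94 and 8.22. The pair also occurred together. At equal depth, MX1 was found in 20.4% and 25.5% of MX2-positive rods at week 4 and in 10.5% and 12.3% of MX2-negative rods, and the intervals of these shares did not overlap in any AAV retina. Over all classes and AAV retinas with at least 30 MX2-positive nuclei, the MX1-positive share was higher among MX2-positive nuclei in 29 of 31 comparisons, with intervals apart in 19. The gap was 9.84 to 31.9 points in rods and 4.25 to 7.08 points in Müller glia. It was not measured in nuclei without glial or immune marker UMIs, so whether both transcripts came from the same cell was not tested.

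Nuclei with MX2 in photoreceptors and bipolar cells also carried more Müller and myeloid marker UMIs. In MX2-positive rods Müller markers were 2.95 to 9.52 times as frequent per UMI as in MX2-negative rods over the 4 AAV retinas. The ratio was 5.77 to 11.6 in cones and 2.79 to 6.66 in bipolar cells, and 0.997 to 2.11 in amacrine cells. DKK3, a Müller marker of the list, was found in 46.1% of amacrine nuclei and 5.27% of rods. The ratios of different classes are therefore not on one scale. For myeloid markers the ratio was 2.07 to 6.99 in rods, 3.58 to 14.3 in cones, 1.95 to 12.3 in bipolar cells and 0.951 to 4.00 in amacrine cells. In amacrine cells at week 4 myeloid markers stood at 0.906 and 0.661 per 10000 UMIs in MX2-positive nuclei, against 0.226 and 0.210 in MX2-negative nuclei. To measure how much of the level this touches, the sums were repeated in nuclei without a UMI of any Müller, astrocyte, myeloid, T/NK or B/plasma marker, an alternative chosen after these values had been seen. MX2 in rods then stood at 11.02 and 16.03 CPM at week 2 and 16.8 and 28.4 CPM at week 4, which is 0.169 to 0.679 of the level in all rods. Cones kept 0.118 to 0.279 of their MX2 level and bipolar cells 0.172 to 0.321, while amacrine cells kept 0.432 to 0.914. The filter left 61.9 to 75.0% of the nuclei of rods and cones, but 16.7 to 27.8% of those of bipolar and amacrine cells. These fractions thus rest on unlike parts of the classes. Of the MX1 level rods kept 0.571 to 0.968, cones 0.420 to 0.844, bipolar cells 0.797 to 0.980 and amacrine cells 0.844 to 0.972, so that cones of the week 2 eyes lost the most. The lowest of these MX2 levels, 3.32 CPM in bipolar cells at week 2, lay above the highest that vehicle rods, cones, bipolar or amacrine cells had under the same filter, 0.369 CPM. Vehicle Müller glia themselves held MX2 at 0 to 0.819 CPM, so vehicle retinas cannot show how much MX2 RNA of other cells entered the neurons. Horizontal cells and RGCs kept 0 to 23 nuclei per AAV retina under this filter, with 0 MX2 UMIs at week 2 and 1 to 10 at week 4, too few to read a level. How far RNA of other cells entered the sums was not tested beyond this count.

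**Figure D3:**
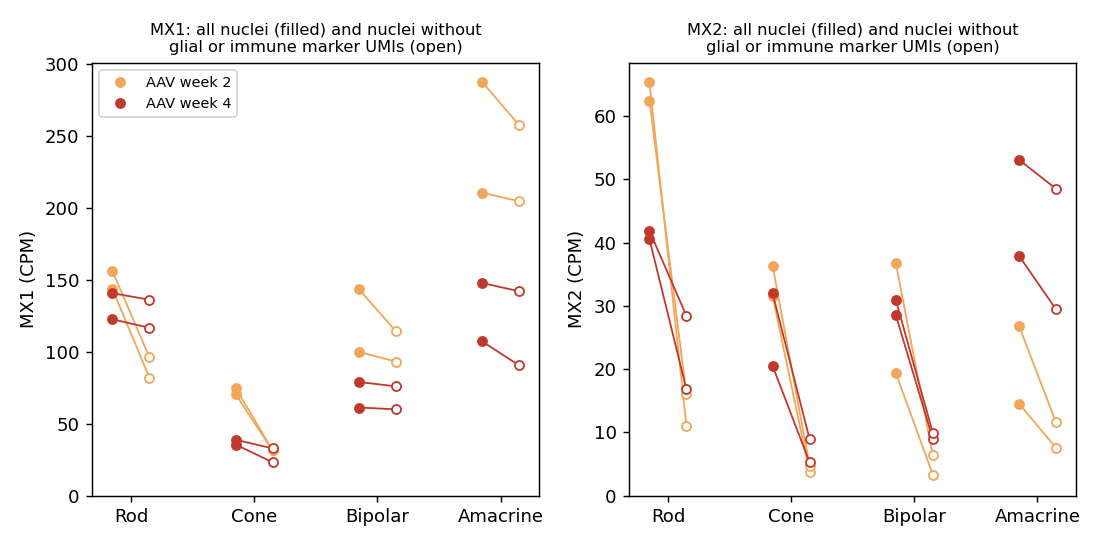
MX1 (left) and MX2 (right) in CPM in rods, cones, bipolar and amacrine cells of the 4 AAV-injected retinas, for all nuclei (filled points) and for nuclei without a glial or immune marker UMI (open points), lines joining the values of a retina. MX2 falls to 0.118 to 0.321 of its level in cones and bipolar cells, and MX1 in rods at week 4 hardly moves.

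The balance of the paralogs differed by cell class within the same retina. In the week 4 AAV retinas MX1 made up 75.2% (74.2 to 76.1%) and 77.1% (76.3 to 77.8%) of the MX UMIs of rods. It made up 43.1% and 41.4% in Müller glia, 41.5% and 43.6% in astrocytes, 29.9% and 27.8% in T/NK nuclei, 28.4% and 39.8% in B/plasma nuclei and 17.0% and 19.1% in myeloid nuclei. Averaged over the 3 AAV animals, the MX1 share was 27.3 ± 11.6 points lower in Müller glia than in rods and 55.2 ± 4.94 points lower in myeloid nuclei (SD, n = 3). Both differences had the same sign in each of the 4 AAV retinas, with intervals apart. The means and SDs pool the weeks. In Müller glia the difference was -9.70 and -18.5 points in the week 2 eyes and -32.1 and -35.6 points at week 4. Müller and myeloid nuclei are gated on such markers, so the filter on glial and immune markers acts on the rods alone in this contrast; against rods without such UMIs the differences were -38.9 and -66.8 points. Per kilobase of gene span, MX2 UMIs in Müller glia were 0.782 and 1.00 times those of MX1 at week 2 and 1.49 and 1.59 times at week 4, and in rods 0.335 to 0.512 times. The RefSeq span of MX2 is incomplete at its start and UMIs need not scale with span, so these values are not read as relative abundance.

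Amacrine, horizontal and ganglion cells had an MX1 share far above rods at week 2 and not at week 4. In the week 2 AAV eyes MX1 made up 93.5% and 91.5% of the MX UMIs of amacrine cells, 95.1% and 92.9% in horizontal cells and 99.7% and 90.7% in RGCs, against 68.7% and 71.4% in rods. Part of this gap lay in rods with glial or immune marker UMIs. Without such nuclei rods stood at 88.2% and 85.7% and amacrine cells at 96.4% and 95.7%. At week 4 the same filter left rods at 87.4% and 82.7% and amacrine cells at 75.5% and 74.6%, so that amacrine cells lay below rods. Over the AAV retinas it kept 64.9 to 75.0% of rods and 16.7 to 22.2% of amacrine nuclei, so unlike parts of the classes are compared. Over all nuclei of week 4 the share was 73.9% and 73.6% in amacrine cells, 58.5% and 63.4% in horizontal cells and 70.4% and 73.0% in RGCs. Both genes differed between the weeks in amacrine cells. There MX1 averaged 249 CPM at week 2 and 128 at week 4, while MX2 averaged 20.7 and 45.5. In horizontal cells MX1 overlapped between the weeks, and MX2 averaged 17.9 CPM at week 2 and 184 at week 4, 10.3 times as much. Week 2 rests on 1 AAV animal, so animal and week cannot be told apart and the difference was not tested. In bipolar cells the MX1 share was 83.8% and 79.6% at week 2 and 68.2% and 71.9% at week 4.

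**Figure D4:**
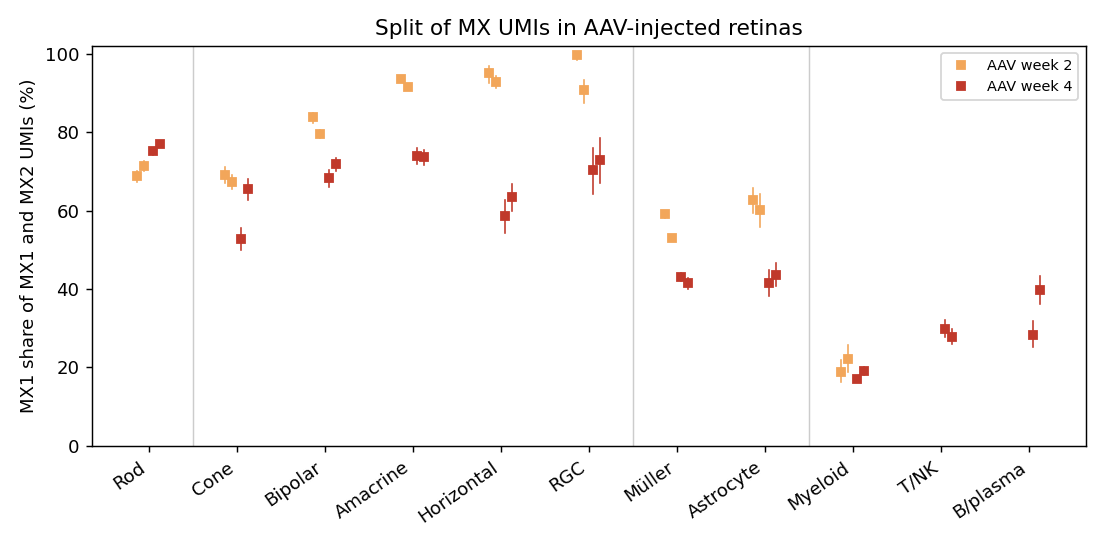
MX1 share of all MX1 and MX2 UMIs, in percent, in each AAV-injected retina (points, with exact 95% intervals as lines) by cell class. Myeloid nuclei lie at 17.0 to 22.2%, glia at 41.4 to 62.7%, and amacrine, horizontal and ganglion cells above 90% at week 2 and below 75% at week 4.

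MX2 in RGCs differed between the eyes of the week 2 AAV animal. In the left eye RGCs had 1 MX2 UMI in 163 nuclei, or 0.00613 per nucleus at a median of 24515 UMIs (0.613% positive, exact interval 0.0155 to 3.37%), and in the right eye 38 UMIs in 130 nuclei (10.8% positive, 6.01 to 17.4%) at a median of 21912 UMIs. MX1 was present in 75.5% and 80.8% of the same nuclei. Rods of these eyes had 0.166 and 0.119 MX2 UMIs per nucleus at medians of 1987 and 1698 UMIs. The difference was not particular to RGCs. Left and right, MX2 was 31.5 and 36.3 CPM in cones, 19.4 and 36.8 in bipolar cells and 14.5 and 26.8 in amacrine cells. It was 10.6 and 25.3 in horizontal cells, 621 and 1086 in Müller glia and 487 and 657 in astrocytes. Rods (65.3 and 62.4) and myeloid nuclei (2379 and 2082) went the other way. The left eye was singled out after its value had been seen.

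Whether MX transcripts followed expression of the vector's transgene was asked by splitting nuclei on EGFP, the count of its reporter. The paper found vector genomes in every retinal layer it examined, so nuclei without an EGFP UMI can still hold vector. EGFP was counted at full depth, where positive nuclei were mostly deeper. Their median was 9319 UMIs in amacrine cells of the right week 2 eye, against 6711 in negative nuclei. Equal depth therefore refers to the MX counts only. In amacrine cells at equal depth, 12.6 to 27.9% of EGFP-positive and 11.2 to 22.5% of EGFP-negative nuclei had MX1, with the positive nuclei higher in 4 of 4 retinas by 3.36 ± 1.95 points (SD, n = 3 animals). In rods the difference was 1.46 ± 1.17 points, higher in 4 of 4 retinas, with intervals apart in 1. The exact sign-flip test over 3 animals, two-sided, gave p = 0.25 for both and adjusted p = 0.667 over 12 tests, and 0.25 is the smallest p that 3 animals allow. MX2 differed by 0.767 ± 1.03 points in rods and 0.525 ± 0.958 in amacrine cells. In bipolar cells MX2 was lower in the EGFP-positive nuclei of 4 of 4 retinas, by -0.379 ± 0.314 points (exact sign-flip p = 0.25, adjusted p = 0.667), and MX1 differed by 0.502 ± 1.22. In RGCs, measured in 3 retinas, MX2 differed by -1.58 ± 1.4995 points and was higher in 0 of 3, and MX1 differed by 0.566 ± 6.61. In the left week 2 eye the MX2 share of RGCs was 0% on both sides. At week 4 it was 0% of 58 EGFP-positive and 2.99% of 67 negative nuclei, and 3.17% of 63 and 4.92% of 61. The right week 2 eye, with 38 MX2 UMIs in RGCs, was not among the 3. No direction can be read from so few nuclei. Without thinning the sign of the MX2 difference was reversed in bipolar cells and in RGCs. Leaving out single AAV retinas took the MX1 difference in RGCs across 0. Cones differed by 0.723 ± 1.65 points for MX1 and 0.0445 ± 1.5003 for MX2. Horizontal cells could be split in both eyes of the week 2 animal only, where MX1 differed by 12.9 points and MX2 by 0.0215, with no test. In Müller glia MX1 differed by -1.40 ± 5.89 points and MX2 by 6.11 ± 5.86, so no difference larger than the spread between animals was detectable for MX1. For each gene EGFP-positive Müller nuclei were higher in 3 of 4 retinas. MX1 was also found in nuclei without a reporter UMI, for example in 10.7% and 12.7% of thinned EGFP-negative rods at week 4.

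The interferon pathway around the pair was read from lists of ligands, receptors, kinases and transcription factors, and feedback regulators. Of 194 gene-class tests over these lists at week 4, edgeR's quasi-likelihood test with Benjamini-Hochberg adjustment called 82 higher and 3 lower, beside 4.61% higher and 4.05% lower over all tests. By class, the higher calls were 12 of 25 in rods (6.62% over all genes), 12 of 23 in bipolar cells (2.38%), 12 of 22 in Müller glia (11.3%), 10 of 22 in myeloid nuclei (5.97%), 9 of 18 in horizontal cells (3.55%), 9 of 19 in RGCs (2.28%), 8 of 23 in amacrine cells (2.35%), 5 of 23 in cones (1.23%) and 5 of 19 in astrocytes (7.33%). The 3 lower calls were 1 each in rods (8.7% over all genes), astrocytes (6.62%) and myeloid nuclei (3.52%). The median log2 fold change was 0.75 over the list tests and between -0.01 and 0.19 over all genes of a class. The lists were chosen with earlier results known, and the counts are a description. The calls in cones did not hold when the first vehicle animal was left out. The higher calls numbered 61 to 88 with any 1 retina left out. The lower calls were less steady, with 5 without the first AAV animal and 0 without the second vehicle animal.

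Of the 8 listed interferon ligands 5 were in the files by symbol, and all of these but IFNE were barely captured. IFNB1, encoding interferon beta, had no UMI in any class and retina, and IFNA1 had 10, 3, 9 and 7 UMIs in AAV week 2, vehicle week 2, AAV week 4 and vehicle week 4. IFNG, made mainly by T and NK cells, had 52 UMIs in AAV week 4 and 3 to 6 in each of the other groups. IFNK had 2 or 3 UMIs in each group. IFNE, an epithelial type I interferon, had 4444, 3808, 3217 and 3020 UMIs in the same order of groups as IFNA1, was tested in 7 classes and fell in rods (log2 fold change -2.14 ± 0.43, edgeR adjusted p = 0.0259) and astrocytes (-1.19 ± 0.26, adjusted p = 0.0158). Without the second vehicle animal neither call held, with log2 fold changes of -1.66 in rods and -1.08 in astrocytes. Without the first vehicle animal the call in rods did not hold, with a log2 fold change of -2.53. The call in astrocytes was also lost with DESeq2 (adjusted p = 0.0935) and under the stricter gate (edgeR adjusted p = 0.139), while its log2 fold change stayed between -0.94 and -1.43 in all settings. In rods IFNE stood at 0.529 and 0.356 CPM in the AAV retinas and 1.49 and 2.75 in vehicle. At week 2, with 1 animal per arm and no test, IFNE in rods went the other way (126 AAV and 123 vehicle UMIs, a normalised log2 ratio of 0.58), and in astrocytes the log2 ratio was 0.10. Cones held most IFNE UMIs at week 2 (3374 AAV and 2788 vehicle). Their log2 fold change at week 4 was 0.35 ± 0.14 (edgeR adjusted p = 0.276), and no other tested class had one above 0.

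Of 47 receptor tests 18 were higher and 1 lower, beside the 4.61% and 4.05% of all tests. IFNAR1 and IFNAR2, the chains of the type I receptor, rose in 5 of 9 classes each, IL10RB, a chain of the type III receptor, in 5 and IFNGR2, of the interferon gamma receptor, in 3. Without the first vehicle animal the first 3 rose in 3 classes each, and without the second IFNAR1 did. IFNAR2 rose in 8 without the second AAV animal. IFNGR2 rose in 1 class without the second vehicle animal or the first AAV animal, in 2 without the first vehicle animal and in 5 without the second AAV animal. IFNGR1 and IFNLR1 passed the test in no class, with log2 fold changes from -0.35 to 1.03 and from 0.60 to 1.57. IFNAR2 fell in myeloid nuclei (-0.66 ± 0.19, edgeR adjusted p = 0.0391), at 1559 and 1284 CPM in AAV and 2463 and 2595 CPM in vehicle retinas of week 4. The call was lost among nuclei of at least 1000 UMIs (edgeR adjusted p = 0.0814) and under the stricter gate (0.0727), with log2 fold changes of -0.59 and -0.60. It was also lost without the first or the second vehicle animal, where the log2 fold change was -0.64 and -0.55. In rods IFNAR1 stood at 40.3 and 34.98 CPM in AAV and 18.4 and 20.5 in vehicle. In rods all 6 receptor genes had smaller log2 fold changes than MX1 (5.51), but in RGCs IL10RB, at 3.49 ± 0.43, stood above MX1, at 2.75 ± 0.21, and in myeloid nuclei it was 2.66 ± 0.46 beside 2.88 ± 0.36. The differences between genes were not tested.

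Among the kinases and transcription factors, 43 of 92 tests were higher and 0 lower, beside the 4.61% and 4.05% of all tests, and 9 of 11 genes rose in at least 1 class and none fell. IRF1, an interferon-inducible activator, rose in 9 of 9 classes, IRF7, which amplifies interferon genes, in 8 of 8, and STAT2 and IRF9, which act in one complex, in 7 of 9 each. Under the stricter gate IRF1 rose in 8 classes and IRF7 in 7. Both also rose in fewer classes without the first AAV animal or the first vehicle animal, and IRF1 without the second vehicle animal. IRF2 rose in 6 (3 without the second vehicle animal), IRF5 and JAK2 in 2 each, and JAK1 and IRF3 in 1 each. The call of JAK1 was lost with RLE size factors, with DESeq2, among nuclei of at least 1000 UMIs and with any 1 retina left out. That of IRF3 was lost with DESeq2 and without the first AAV animal or either vehicle animal. IRF5 rose in 0 classes without the second vehicle animal and in 1 without the first or without the first AAV animal. TYK2 passed in none, nor did IRF8, which rose in 4 classes without the second vehicle animal, in 1 without the second AAV animal and in 1 with DESeq2. When every gene with a count was tested, IRF8 rose in 2 classes. STAT2 and IRF9 split in rods. At week 4 STAT2 was 118 and 94.5 CPM in AAV rods and 101.6 and 104.7 CPM in vehicle rods, which overlap, and IRF9 was 64.3 and 66.5 against 10.3 and 18.2.

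Of 48 tests of feedback genes 21 were higher and 0 lower, beside the same 4.61% and 4.05%. ISG15 and USP18, which together hold the type I receptor in check, rose in 8 of 9 classes each, SOCS3 in 2 of 2, PTPN6 in 2 of 6 and SOCS1 in 1 of 4, while PIAS1 and PTPN2 passed in none. PTPN6 rose in 0 classes without either vehicle animal and in 1 without either AAV animal. SOCS1 rose in 0 with DESeq2 and without the first AAV animal or either vehicle animal, and SOCS3 in 1 in each of these 4 settings and under the stricter gate. PTPN2 rose in 1 class without the first vehicle animal. When every gene with a count was tested PTPN2 rose in 1 class, and with DESeq2 PTPN6 rose in 1. USP18 in rods was 83.3 and 99.7 CPM in AAV and 4.06 and 6.87 in vehicle at week 4. In Müller glia it was 25.7 and 46.1 against 12.3 and 13.4, so that rods held more USP18 than Müller glia in both AAV animals although they held less MX1 and MX2.

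Of 8 listed neighbours on chromosome 13, 6 were tested in a total of 46 gene-class tests. edgeR called 0 higher, beside 4.61% of all tests, and 6 lower, beside 4.05%. Under the stricter gate 1 was higher, and the lower calls numbered 4 to 10 with any 1 retina left out, the highest without the first AAV animal. Of the 6 lower calls 3 were in Müller glia, where 11.7% of all genes were lower, 2 in rods (8.7%) and 1 in astrocytes (6.62%). PDE9A was lower in 3 of 9 classes, DSCAM in 2 and C2CD2 in 1, and FAM3B, PRDM15 and RIPK4 in none, with log2 fold changes from -0.94 to -0.02 for FAM3B, which adjoins MX2. TMPRSS2, which adjoins MX1, had too few UMIs to test. Over the dynamin superfamily, 13 of 115 tests were higher and 5 lower, beside the same 4.61% and 4.05% of all tests. GBP1, an interferon-induced guanylate-binding protein, accounted for 9 of the 13 and GBP2 for 2. DNM1, a dynamin of synaptic vesicle recycling, rose in myeloid nuclei by a log2 fold change of 2.88 ± 0.37 (edgeR adjusted p = 0.000206), beside 2.88 ± 0.36 for MX1, and fell in Müller glia and astrocytes. ATL2, an atlastin of the endoplasmic reticulum, rose in Müller glia (0.70 ± 0.14, edgeR adjusted p = 0.00819). DNM3 fell in rods and astrocytes and ATL1 in rods. Without the second vehicle animal the lower calls numbered 2, since those of DNM3 and ATL1 were lost, and that of ATL1 was also lost without the first. The median log2 fold change over the superfamily was 0.09.

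The genes most like each paralog differed. Over 76 class-by-retina sums and 13019 genes, the Pearson correlation of log2(CPM + 1) with MX1 was highest for an unnamed gene (ENSSSCG00000017146, 0.97), LGALS3BP (0.96), EIF2AK2 (0.96), a second unnamed gene (ENSSSCG00000055162, 0.96) and RIGI (0.95). EIF2AK2 encodes PKR, a kinase that senses double-stranded RNA, and RIGI an RNA helicase sensor. With MX2 it was highest for PARP14 (0.98), an unnamed gene (ENSSSCG00000014670, 0.96), EPSTI1 (0.95), DTX3L (0.95) and HERC6 (0.95), of which PARP14 and DTX3L act in ADP-ribosylation and ubiquitin signalling. MX1 and MX2 correlated at 0.90 with each other, rank 31 of the MX1 list and rank 33 of the MX2 list. The sums share libraries and arms, so these are descriptions of likeness only.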

How the data were processed

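Nuclei of 8 pig retinas had been sorted by DAPI and run on 4 droplet lanes per retina. The deposited values are raw UMI counts per gene and barcode, made by the authors with Cell Ranger 8.0.0 on Sscrofa11.1, with EGFP added as a gene. From these counts, nuclei with a high mitochondrial share were removed with a 2-component mixture (posterior 0.75), and the others were classed by the likelihood of their marker counts (at least 2 markers, 3 marker UMIs and a likelihood ratio of 100); doublets were not called separately. The rule of the gate was set after marker counts had been seen. Counts were summed per class and retina, and week 4 was fitted with edgeR 4.0.16 (quasi-likelihood, TMM, 2 animals per arm), on classes with at least 50 nuclei per retina, adjusted over all genes at 0.05. The scripts were tested on simulated data. Of genes changed there by a log2 fold change of 1, 48.7% were recovered in rods and 16.7% in myeloid nuclei. At a log2 fold change of 2 it was 91.0% and 58.8%. A gene that passed in no class may therefore have changed. P-values rest on 2 animals per arm. Week 2 has 1 animal per arm and was given no test. Shares carry exact Clopper-Pearson 95% intervals, and thinning drew 1000 UMIs per nucleus without replacement. How the authors' counting treated reads shared by the paralogs was not checked. In the RefSeq exons 21 of 1805 MX1 stretches of 50 bases also occur in MX2. The EGFP contrast used classes and retinas with at least 30 EGFP-positive nuclei.

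The members and lists were chosen with earlier results of these data known. Some items are not reported here, and the list counts leave them out. Genes named in full are MX1 and MX2. Values are given for list genes that passed in at least 1 class, for neighbours tested and, for each member, the 5 genes of highest correlation among those with a mean of at least 5 CPM. List genes that passed in none or were not tested are named for their role. Alternatives were RLE size factors, DESeq2 1.42.0, no expression filter, other filters on nuclei, a stricter gate and leaving out each retina.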

Additional observations from a re-analysis of the deposited data

How the results depend on the processing

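No paired analysis was possible because the animals of the arms differ and the labels give no number that links an AAV to a vehicle animal. Of 246 recalculated main results, 201 kept their direction within the spread between replicates, or their count within 1.5 times. Of the others, 35 moved further and 10 were reversed.

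Leaving out each week 4 retina gave 3698 to 6688 gene-class calls higher and 2563 to 6880 lower (6460 and 5684 with all 4), and 61 to 88 interferon pathway calls higher and 0 to 5 lower. Testing every gene with a count gave 5 pathway calls lower. The MX1 log2 fold change at week 4 ranged over these 4 fits from 3.75 to 4.14 in bipolar cells, 3.01 to 3.46 in amacrine cells, 4.25 to 5.21 in horizontal cells, 4.46 to 4.97 in Müller glia, 3.15 to 3.85 in astrocytes and 2.51 to 3.63 in myeloid nuclei. For MX2 it ranged from 6.76 to 7.31 in rods, from 9.63 to 10.99 in Müller glia and from 3.36 to 4.10 in myeloid nuclei, where fits leaving 3 or fewer vehicle UMIs were not used. The stricter gate gave 3.01 for MX1 in astrocytes and 9.85 for MX2 in Müller glia.

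The difference in MX1 share between bipolar cells and rods, -0.178 points, has no stable sign: it was 0.111 under the stricter gate, 4.65 without nuclei bearing glial or immune markers, and -1.32 to 3.20 with any 1 AAV retina left out. That marker filter also turned amacrine cells minus rods from 5.89 to -3.66 points and gave -38.9 for Müller glia and -66.8 for myeloid nuclei, where it acts on the rods alone.

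Without thinning, the EGFP-positive minus EGFP-negative share of MX1-positive nuclei was 5.52 points in rods, 4.98 in bipolar cells, 12.8 in amacrine cells and 8.80 in RGCs, and that of MX2 2.75, 0.416 (reversed from -0.379), 2.95 and 4.96 (reversed from -1.58). With at least 2 EGFP UMIs MX1 gave 2.91 in rods and 5.49 in amacrine cells and MX2 -0.757 in bipolar cells, and without the filter on nuclei MX1 in rods gave 3.10. Leaving out each AAV retina moved MX1 in RGCs between -1.97 and 4.30, across 0. The alternative of nuclei of at least 1000 UMIs was not run for EGFP, since thinning keeps only these. Depth limits MX2 in vehicle neurons, where 0 to 14 UMIs per class set the week 4 ratios.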
